A study of Homo sapiens with 9 samples.

Results

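Gene expression after 24 h of hyaluronidase was compared with time-matched PBS in LiSa-2 cells, an established human liposarcoma line, on 6 of the 9 arrays of the series. The members are all genes measured on these arrays: 19775 genes with a symbol, each read by its probe set of highest mean signal, of which 13842 passed a filter on low values and were tested. The control group of 3 arrays held cells given phosphate-buffered saline (PBS) and harvested after 24 h. The treated group of 3 held cells given bovine testicular hyaluronidase at 400 µg/mL for 24 h. Both groups were grown on plates in DMEM/F12 medium with bovine serum, penicillin and streptomycin. The other 3 arrays of the series held cells given the enzyme for 6 h. They have no PBS control of their own harvest time, so the 24 h comparison is the one in which treatment differs and harvest time does not. The groups represent 1 cell line and 1 enzyme preparation, and no arm with inactivated enzyme is among the samples. Whether replicates came from separate cultures is not in the labels, so p-values here measure only the spread among these samples, and that spread may be technical. A permutation of 3 arrays against 3 cannot give a two-sided p below 0.1, so single genes were tested with limma, a linear model fitted across all genes.

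Hyaluronan is a long sugar polymer of the extracellular matrix that is made at the cell surface by the synthases HAS1, HAS2 and HAS3, bound by receptors such as CD44 and cut by hyaluronidases. Fat cells are surrounded by such a matrix, and its fragments can act as signals on neighbouring cells. Differentiated fat cells depend on the transcription factors PPARG and CEBPA, which maintain the genes for lipid storage, lipid breakdown and hormone secretion. Inflammatory and growth factor signals reach the nucleus through NF-kappaB and through the ERK kinases, whose targets include AP-1 and ETS factors and the phosphatases that switch the kinases off again.

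Over all probe sets but the controls, arrays of 1 group correlated at r of 0.981 to 0.984 and arrays of different groups at 0.965 to 0.967. This is a description across probe sets, which are not independent. Markers of fat cells and of stroma were both visible in PBS. Of 12 adipocyte markers measured, 11 lay above the control level on all 3 PBS arrays, as did 10 of 12 fibroblast and stroma markers. So did 4 of 10 leukocyte, 3 of 10 epithelial, 3 of 6 smooth muscle, 2 of 8 endothelial, 2 of 6 neuron and 1 of 6 skeletal muscle markers. The control level of an array is its brightest signal among 27 control probe sets for genes of Bacillus subtilis, 36.0 to 65.0 here. Of 10 epithelial markers 6 (EPCAM, CDH1, KRT19, CLDN3, CLDN4 and ESRP1) lay at or below the control level on all 6 arrays, as did 4 of 10 leukocyte markers (PTPRC, MS4A1, LYZ and TYROBP), 4 of 8 endothelial markers and 5 of 6 skeletal muscle markers. The ratio of 3' to 5' signal, which rises as RNA degrades, had a log2 difference of -0.12, 24 h minus PBS, for both GAPDH and ACTB (exact permutation p = 0.1 and 0.3).

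After 24 h of hyaluronidase, most tested genes of interleukins, their receptors and integrins were higher, and most genes that regulate, store or release fat in fat cells lower. Secreted mediators such as CXCL8 and INHBA and the protease MMP3 were among the largest rises, and the lipid droplet protein gene PLIN1 and the selenium carrier gene SELENOP among the largest falls. Most tested respiratory chain genes fell by small amounts (median log2 fold change -0.42 for complex I) and most fatty acid oxidation genes by more (median -0.66), while cytosolic ribosomal protein genes stayed close to their PBS level.

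By limma with Benjamini-Hochberg adjustment, 5577 of 13842 tested genes changed (40.3%), 2423 of them higher (17.5%) and 3154 lower (22.8%). Most of these changes were small: 3136 calls (56.2%) were under 1.5-fold, and the median absolute log2 fold change over all tested genes was 0.25, against 0.92 at the 90th percentile and 2.64 at the 99th. Fold changes are on the scale of log2(signal + 16) and understate the change of dim genes. A change of 4-fold or more was measured in 165 genes that rose and 112 that fell, and one of 8-fold or more in 62 and 32. In a stricter test, whose null hypothesis is a change of up to 2-fold, 319 genes (2.3%) were higher and 246 (1.78%) lower. The 3 arrays of each group did not overlap in 7194 genes (52%). For 1835 genes (13.3%) the 95% confidence interval of the change lay within 1.2-fold in either direction. The shares of 17.5% higher and 22.8% lower are the background for the counts within gene lists below.

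**Figure D1:**
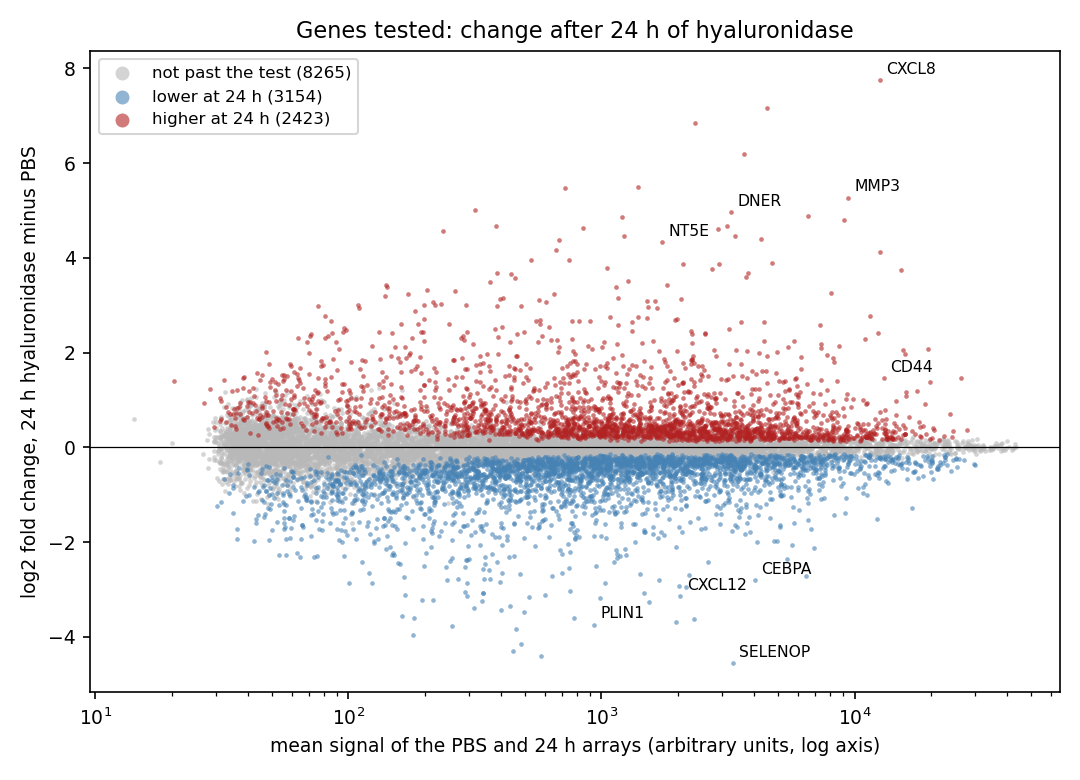
Log2 fold change at 24 h (vertical axis) against mean signal of the 6 arrays (horizontal, log axis) for the 13842 tested genes, 1 point each. Red points are the 2423 genes past the test as higher, blue the 3154 as lower and grey those not past it; CXCL8 at 7.76 is the highest point and SELENOP at -4.56 the lowest.

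The largest rise was that of a secreted signal. CXCL8, which attracts neutrophils, had signals of 113, 97.6 and 91.0 on the PBS arrays and 25817, 26399 and 23080.4 at 24 h, a log2 fold change of 7.76 ± 0.08 (SE). Its relatives CXCL2 and CXCL3 had signals of 78.1, 75.2 and 46.2 and of 52.6, 28.5 and 58.5 on the PBS arrays, above the control level on 2 and 1 of them, and 2303, 2211 and 2486 and 2592, 2455 and 3161 at 24 h. In all 3 genes the groups were far apart, and the 24 h arrays differed little among themselves. These 3 were the ones that rose among 4 tested genes of their chemokine group, and 1 did not pass. Of 12 tested interleukin and colony-stimulating factor genes 8 rose and 1, IL15, fell (log2 fold change -0.46). IL1B, the central fever cytokine, read 453, 432 and 372 on the PBS arrays and 12687, 12694 and 12676 at 24 h. IL6, an acute-phase cytokine, read 78.8, 63.8 and 66.4 on the PBS arrays and 804, 682 and 745 at 24 h. Both rose, by 4.87 ± 0.07 and 3.15 ± 0.09 (log2, SE), while IL1A, the other interleukin 1, did not pass the test (0.10 ± 0.17). The interleukin 1 antagonist gene IL1RN also rose, by 2.50 ± 0.12. IL11 and LIF, of the IL6 family, lay at or below the control level in PBS and reached 371, 379 and 459 and 421, 369.6 and 360.3 at 24 h, at least 6.42-fold and 6.14-fold higher. The alarmin IL33, also at or below the control level in PBS, was at least 11.8-fold higher. CXCL12, the stromal chemokine that retains blood stem cells, went the other way, from 3545, 3727 and 3823 to 385, 407 and 420.3, a fall of 8.84-fold (limma adjusted p at most 7.26e-04 for the changes named here).

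Of the 12 chemokine and cytokine genes named above, 10 were found in the promoter table, and 4 of these hold the core of an NF-kappaB element in the 250 bases before the start. IL11, IL1A, IL1B, IL1RN, IL33 and CXCL12 hold none there. The 4 are shown because of the match and were chosen after it was seen. Each line gives the 120 bases before the annotated start (RefSeq, GRCh38.p14, 5′ to 3′ on the gene's strand), with matches to GGANTTTCC in capitals.
CXCL8 (chr4:73740449-73740568, + strand): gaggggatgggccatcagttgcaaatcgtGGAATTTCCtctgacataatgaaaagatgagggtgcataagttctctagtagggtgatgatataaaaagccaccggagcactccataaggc
CXCL2 (chr4:74099196-74099315, - strand): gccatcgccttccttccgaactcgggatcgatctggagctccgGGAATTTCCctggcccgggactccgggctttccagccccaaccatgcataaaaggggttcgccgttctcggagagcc
CXCL3 (chr4:74038690-74038809, - strand): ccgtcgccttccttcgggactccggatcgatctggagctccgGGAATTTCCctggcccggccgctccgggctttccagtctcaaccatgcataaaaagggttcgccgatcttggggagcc
IL6 (chr7:22727080-22727199, + strand): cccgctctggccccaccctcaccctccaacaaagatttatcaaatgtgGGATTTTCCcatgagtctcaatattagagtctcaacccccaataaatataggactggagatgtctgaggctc
The match begins 91 bases before the start in CXCL8, 77 in CXCL2, 78 in CXCL3 and 72 in IL6. Over the 250 bases before the start, searched on both strands, GGANTTTCC stood in 1.47% of all 27305 promoters of the table and in 1.52% of the 11167 of tested genes. Among genes higher in the test against 2-fold it stood in 11 of 244 promoters (4.51%), and among genes lower in it in 3 of 190 (1.58%). These shares are descriptions, and a match is not a measured binding site.

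Receptor genes for these signals were mostly higher. Of 25 tested interleukin and TNF receptor genes 14 were higher and 5 lower (3 without any 1 PBS array), against 17.5% and 22.8% of all tested genes, with a median log2 fold change of 0.68. TNFRSF1B, the second TNF receptor, read 103, 169 and 149 on the PBS arrays and 955, 940.3 and 990.2 at 24 h. OSMR, the oncostatin M receptor that pairs with IL6ST, read 2733, 2676 and 2542 on the PBS arrays and 11525, 12589 and 12136 at 24 h. The groups did not overlap for either, as in 52% of all tested genes, and IL6ST, the shared signal chain of the IL6 family, rose by 0.91 ± 0.06. TNFRSF12A (TWEAK receptor, 2.24), IL18R1 (1.99) and the decoy receptor IL13RA2 (2.60) rose as well. IL11RA, the receptor of IL11, fell from 288, 334 and 380.4 to 131, 84.4 and 82.9, so this ligand and its receptor changed in opposite directions (limma adjusted p at most 1.39e-04 for the receptor changes named here).

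Growth factor genes included large rises of single members of the EGF and VEGF families. Of 22 tested ligand genes 9 rose and 2 fell, and 11 did not pass (median log2 fold change 0.54; with the filter at the 50th percentile, which tests fewer genes, 5 rose). HBEGF, a membrane-bound ligand of the EGF receptor, read 73.1, 75.7 and 78.5 on the PBS arrays and 1282, 1461 and 1503 at 24 h. EREG, another such ligand, lay at or below the control level in PBS and read 287, 299.9 and 380.2 at 24 h, at least 5.18-fold higher. Their receptor gene EGFR rose from 787, 719 and 729.8 to 2211, 1953 and 1819. VEGFA, the main angiogenic factor, read 1663, 1500.5 and 1394 on the PBS arrays and 14579.9, 15353 and 14030.1 at 24 h, and VEGFC (1.86) and FGF2 (1.96) rose too. ANGPT1, which stabilises vessels, fell from 2553, 2681 and 2681 to 323, 284 and 289, and FGFR2, a receptor for fibroblast growth factors, from 1445, 1417 and 1476 to 112, 92.9 and 111. The hepatocyte growth factor receptor gene MET rose by 1.61 ± 0.11 (log2, SE), and FGFR1 by 0.46 ± 0.07, so FGFR1 and FGFR2 moved in opposite directions on the probe sets used. Another FGFR1 probe set was also called higher (0.51), while its others, from -0.20 to 0.48, did not pass. The other MET probe sets (0.31 and 0.39) did not pass. Of 18 tested receptor genes 4 rose and 3 fell, near the shares over all tested genes (limma adjusted p at most 0.00109 for the changes named here).

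Within the TGF-beta superfamily both ligands and inhibitors were among the genes that rose. Of 21 tested genes 12 rose and 1 fell (2 without PBS replicate 3), while 8 did not pass. INHBA, the subunit of activin A, read 291, 248 and 295 on the PBS arrays and 6429, 6642 and 6233 at 24 h. FST, follistatin, which binds and blocks activin, read 328, 333 and 323 on the PBS arrays and 2811, 3064 and 2906 at 24 h. BMP2, a bone morphogenetic protein, rose by 2.47 ± 0.06, and the BMP antagonist NOG, at or below the control level in PBS, was at least 3.49-fold higher at 211, 193 and 230.1. GREM1, another BMP antagonist, rose by 1.24 ± 0.08. The gene that fell was CHRDL1, also a BMP antagonist (-0.96 ± 0.14). TGFB2 (1.67) and the latency proteins LTBP1 (2.40) and LTBP2 (1.32) also rose. GDF15, a stress hormone that suppresses appetite, read 329.5, 431 and 394 on the PBS arrays and 2582, 2526 and 2783 at 24 h (limma adjusted p at most 9.05e-04 for the changes named here).

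In other developmental pathways single members changed in both directions. Of 27 tested Wnt genes 6 rose and 10 fell. The ligand WNT5A read 306, 325 and 327 on the PBS arrays and 1992, 2012 and 2006 at 24 h. WNT5B lay at or below the control level in PBS and read 281, 261 and 251 at 24 h, at least 4.31-fold higher. AXIN2, a standard target of beta-catenin signalling, fell by 1.04 on the log2 scale, from 343, 386 and 392 to 163, 175 and 183, a call lost when all its probe sets were averaged (-0.40). The Wnt antagonist genes SFRP2 and DKK1 moved apart, with log2 fold changes of -2.13 and 1.16. In the Notch pathway 5 of 20 tested genes were higher and 5 lower, near the shares over all tested genes (17.5% and 22.8%). DNER, an atypical ligand, read 174, 202 and 185 on the PBS arrays and 6326, 6616 and 6024 at 24 h. The classical ligand genes JAG1 and JAG2 fell, with log2 fold changes of -0.95 and -1.29. Among guidance genes NRP1 (1.61), PLXNA1 (1.45) and SEMA3A (1.08) rose, and SEMA6D (-2.25) and SEMA3G (-1.69) fell; of 25 tested, 10 rose and 4 fell (limma adjusted p at most 0.00270 for the changes named here).

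Feedback inhibitors of the ERK kinases were mostly higher. Of 19 tested ERK phosphatase, Sprouty, Spred and LRIG genes 12 rose and 3 fell, with a median log2 fold change of 1.16. DUSP6, which dephosphorylates ERK, read 367, 338 and 364 on the PBS arrays and 5684, 5345 and 5307 at 24 h. SPRY2, which blocks receptor signalling upstream of ERK, read 207, 196 and 186 on the PBS arrays and 1401, 1268 and 1323 at 24 h. DUSP5 (2.64), SPRED1 (1.66), SPRED2 (1.74) and the EGF receptor inhibitor ERRFI1 (1.61) rose as well, while SPRY1 fell (-0.58). Of 23 tested AP-1, ETS, EGR and NR4A genes 15 rose and 3 fell. FOSL1, an AP-1 subunit, read 367, 349 and 323 on the PBS arrays and 2309.6, 2470.2 and 2525 at 24 h. ETV5, an ETS factor induced by ERK, read 227, 199 and 211 on the PBS arrays and 1368, 1484 and 1415 at 24 h, and ETV4, at or below the control level in PBS, was at least 5.35-fold higher at 325, 309.6 and 361. The small MAF protein MAFF rose by 3.68 ± 0.05, whereas MAF (-1.34) and the stress factor ATF3 (-0.83) fell. SOCS3, the brake on IL6 family signalling, rose by 2.70 ± 0.10, while STAT3 itself (-0.84) and STAT5A (-1.46) fell (limma adjusted p at most 3.12e-04 for the changes named here).

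The pattern TGANTCA, in which N is any base, is looser than the AP-1 core TGA(C/G)TCA. It is shown in 3 promoters of genes that were higher in the test against 2-fold, chosen after the matches were seen. These are IL11, the membrane protein gene EMP1 and the protease inhibitor gene TFPI2. The 120 bases before the start are given, with the match in capitals (RefSeq, GRCh38.p14). Only the match in IL11 has C or G at N, and the shares below count any base there.
IL11 (chr19:55370464-55370583, - strand): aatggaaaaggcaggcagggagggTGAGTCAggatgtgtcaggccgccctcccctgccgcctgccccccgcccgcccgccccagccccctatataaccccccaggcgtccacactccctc
EMP1 (chr12:13196606-13196725, + strand): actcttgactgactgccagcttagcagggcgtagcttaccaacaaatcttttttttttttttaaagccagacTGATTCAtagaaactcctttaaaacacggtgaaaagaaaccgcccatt
TFPI2 (chr7:93890754-93890873, - strand): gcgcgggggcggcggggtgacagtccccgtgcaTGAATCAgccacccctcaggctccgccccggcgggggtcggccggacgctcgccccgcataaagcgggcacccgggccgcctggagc
TFPI2 read 2083, 2102 and 2106 on the PBS arrays and 29585, 29839 and 25469 at 24 h, and EMP1 3242, 3457 and 2975 on the PBS arrays and 14602, 15033 and 12894 at 24 h. TGANTCA stood in the 250 bases before the start in 6.6% of all promoters and 4.19% of those of tested genes. Among genes higher in the test against 2-fold it stood in 25 of 244 (10.2%), and among genes lower in it in 4 of 190 (2.11%).

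Single protease genes rose by large amounts, while many others did not pass the test. Of 15 tested matrix metalloproteinase genes 6 rose (40%), 2 fell (13.3%) and 7 did not pass, against 17.5% and 22.8% of all tested genes. MMP3, stromelysin, read 563, 410.1 and 423 on the PBS arrays and 18666, 19696 and 16978 at 24 h. MMP1, interstitial collagenase, lay at or below the control level on all PBS arrays and read 4683, 4574 and 4733 at 24 h. MMP9, a gelatinase, read 122, 118 and 94.7 on the PBS arrays and 1227, 1223 and 1114 at 24 h, while the membrane protease gene MMP16 fell from 826, 857 and 759 to 388, 375 and 282. Of 26 tested ADAM and ADAMTS protease genes 7 rose (26.9%), 4 fell (15.4%) and 15 did not pass. Among them ADAMTS6 rose from 169.9, 115 and 107 to 1973, 2036 and 1878, and ADAMTS9 fell by 1.83. The urokinase receptor gene PLAUR read 582, 540.2 and 540.3 on the PBS arrays and 6756, 7189.7 and 6744 at 24 h. THBD, thrombomodulin, which turns thrombin into an anticoagulant enzyme, read 610.2, 563 and 570.0 on the PBS arrays and 8797, 9129.9 and 8649 at 24 h. The tissue inhibitor TIMP1 rose by 1.46 ± 0.05 and TIMP3 by 0.93 ± 0.06. Of 15 tested genes of the plasminogen and coagulation system and of protease inhibitors 9 rose and 3 fell (limma adjusted p at most 8.73e-05 for the changes named here).

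The structural matrix changed by component. The fibrillar collagen genes COL1A2 and COL3A1 fell, from 1917, 2205 and 1960.2 to 387, 438 and 511 and from 17717, 17986 and 18593 to 6211, 6581 and 6189.9. COL15A1 (1.48), COL5A3 (1.27), COL6A3 (0.99) and COL6A2 (0.81), which form sheets, minor fibrils and beaded filaments, rose. Over the 28 tested collagen genes 10 rose (35.7%) and 5 fell (17.9%), against 17.5% and 22.8% of all tested genes. Among 25 matricellular and elastic fibre genes 5 rose and 10 fell: TNC, tenascin C, rose by 1.80 ± 0.13, and FN1, fibronectin, by 0.71 ± 0.05, whereas THBS1 (-1.69), CCN5 (-2.80), MATN2 (-2.08) and EFEMP1 (-1.69) fell. The small leucine-rich proteoglycan genes LUM and DCN, which bind collagen fibrils, fell (-1.27 and -0.92), and the cell surface proteoglycan gene SDC4 rose by 1.73 ± 0.08 (limma adjusted p at most 0.00199 for the changes named here).

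Genes that make, cut or bind hyaluronan, the substrate of the enzyme, rose in 6 of 15 tested cases and fell in 1 (2 without PBS replicate 1 or 24 h replicate 3, and 3 without 24 h replicate 2). These are 40% and 6.67%, against 17.5% and 22.8% of all tested genes. HAS2 read 241, 186 and 213 on the PBS arrays and 5966, 5688 and 4971 at 24 h. CEMIP, which binds and depolymerises hyaluronan, read 427, 348 and 314 on the PBS arrays and 5109.9, 5286 and 4897 at 24 h. The cross-linkers PTX3 (1.79) and TNFAIP6 (0.93) and the receptor gene CD44 (1.46) rose too. HAS3 did not pass the test, with a log2 fold change of 0.04 ± 0.26 and arrays above the control level in 3 of 3 PBS and 2 of 3 24 h samples. ITIH5, of the family of heavy chains that are coupled to hyaluronan, fell by 0.81. Among enzymes of sugar nucleotide supply UGDH, which makes the glucuronic acid donor, rose by 0.73 ± 0.06, and UAP1, which makes the N-acetylglucosamine donor, by 0.65 ± 0.05; 4 of 11 rose and 0 fell, or 1 without 24 h replicate 2 (limma adjusted p at most 0.00237 for the changes named here).

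Among adhesion receptor genes, more integrins rose than fell and more cadherins fell than rose. Of 20 tested genes with integrin subunit symbols 11 rose and 3 fell (median 0.52). ITGA3, a laminin-binding subunit, read 745, 723 and 848 on the PBS arrays and 3198, 3153 and 3283 at 24 h. ITGB3, the partner of the alpha V subunit, read 195, 219 and 166 on the PBS arrays and 2343, 2346 and 2350.3 at 24 h, and ITGAV itself rose by 0.51 ± 0.07. ITGA2, a collagen-binding subunit above the control level on 2 of 3 PBS arrays, read 105, 84.5 and 62.3 on the PBS arrays and 7090.4, 7151 and 7415 at 24 h. No array of either group crossed into the other in these genes, as in 52% of all tested genes. Of 18 tested cadherin and protocadherin genes 1 rose (2 without PBS replicate 1 or 2) and 7 fell. The riser was CDH2, N-cadherin, with 80.4, 74.4 and 89.4 on the PBS arrays and 429, 411 and 585 at 24 h. CDH7 fell from 707, 673 and 854 to 69.4, 54.6 and 42.0, CDH11, the cadherin of mesenchymal cells, by 0.86, and PCDH18 from 6855, 6301 and 7307 to 2485, 2551 and 2194. Targets of YAP and TEAD, the factors that respond to adhesion and stretch, rose in 13 of 19 tested cases and fell in 3 (1 without PBS replicate 1 or 2 or 24 h replicate 3). CCN1 rose by 1.92 ± 0.06, CCN2 by 1.44 ± 0.10 and NT5E, the enzyme that makes extracellular adenosine, from 156, 128 and 165 to 3167, 3251 and 3529.5 (limma adjusted p at most 8.23e-04 for the changes named here).

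**Figure D2:**
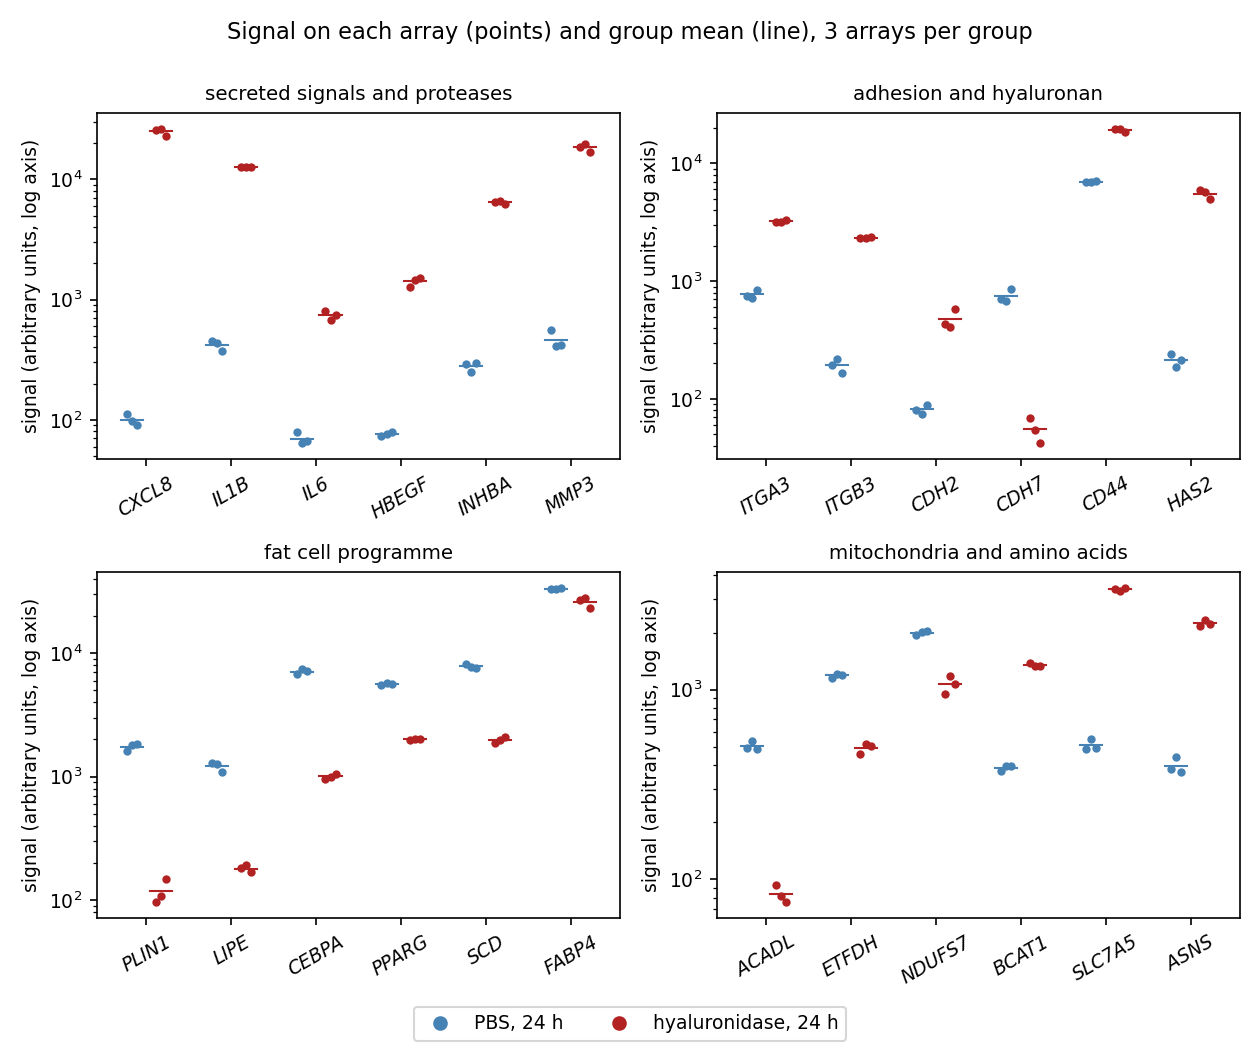
Signal (log axis, arbitrary units) of 24 genes on each of the 3 PBS arrays (blue points) and 3 arrays after 24 h of hyaluronidase (red points), with short lines at the group means. The groups do not overlap in any of the 24 genes, as in 52% of all tested genes, and the 24 were picked with earlier results known. CXCL8 is at 100.4 against 25099 on average, and PLIN1 and ACADL are among those that fell. Signals of different genes are not comparable.

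Genes that mark and regulate fat cells were mostly lower. Summed over the 12 adipocyte markers measured, the signal was 65002 to 67560.1 on the PBS arrays and 31802 to 36409 at 24 h, and all 11 that were tested fell. Some markers of other lineages moved beside them. Of 11 tested fibroblast and stroma markers 6 fell and 2 rose, with a summed signal of 76399 to 79103 in PBS and 64978 to 74873 at 24 h. The summed signal of smooth muscle markers was 1442 to 1637 in PBS and 480 to 586 at 24 h. That of epithelial markers was 496 to 766 and 248 to 394. In each of these lists only 1 of 4 tested genes fell and 3 did not pass. The smooth muscle gene that fell was ACTA2, smooth muscle actin (-2.20 ± 0.09). The part of these other lineages in the fat cell result was not tested. In RNA from whole cultures, fewer cells of a type and less RNA per cell cannot be told apart. PPARG, the master regulator of fat cells, read 5506, 5699 and 5634 on the PBS arrays and 1991, 2035 and 2015 at 24 h. CEBPA, its partner, read 6722, 7424 and 7121 on the PBS arrays and 961, 989 and 1057 at 24 h. The arrays of each group lay close together, and the groups were several-fold apart. Of 21 tested adipogenic transcription factor genes 12 fell and 2 rose, with a median log2 fold change of -0.88. PPARGC1A, the coactivator of mitochondrial biogenesis, fell from 1706, 1981 and 2024 to 347, 374 and 309, and ZNF423, a commitment factor of preadipocytes, by 1.77. The 2 that rose were EBF2, a factor of the brown fat lineage, and PPARD, a relative of PPARG found in many tissues (0.40 ± 0.06). EBF2 lay at or below the control level in PBS and read 141, 136 and 113 at 24 h, at least 2.24-fold higher. The nuclear receptor gene NR3C1, for glucocorticoids, differed by 0.01 ± 0.07 (95% interval -0.16 to 0.17) and did not pass (limma adjusted p at most 0.00101 for the changes named here).

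Genes of fat storage and of fat release were mostly lower. Of 22 tested lipid droplet and fatty acid carrier genes 13 fell and 3 rose, and of 19 genes of triglyceride synthesis and lipolysis 12 fell and 3 rose. PLIN1, which coats the droplet, read 1623, 1798 and 1825 on the PBS arrays and 96.3, 107 and 149 at 24 h. LIPE, hormone-sensitive lipase, read 1284, 1265 and 1082 on the PBS arrays and 180.3, 191 and 169 at 24 h. LPL, which takes fatty acids from lipoproteins, read 7415, 7687 and 7899 on the PBS arrays and 1941, 1949 and 1908 at 24 h. These large falls contrast with FABP4, the abundant fatty acid binding protein, which fell by 0.36 from 32993, 32886 and 34007 to 26853, 28105 and 23334. DGAT1 and DGAT2, which make triglyceride, fell (-0.54 and -0.57), as did ABHD5, the coactivator of the first lipase of the droplet (-0.46). GPAT3, an acyltransferase of the same pathway, rose by 2.29 ± 0.09, as did the fatty acid activating enzyme gene ACSL4 (1.05 ± 0.08), while its relative ACSL1 fell by 1.65. CAVIN2, a coat protein of caveolae, fell from 1318, 1511 and 1207 to 136, 150.4 and 164 (limma adjusted p at most 0.00582 for the changes named here).

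In the main fit most sterol and fatty acid synthesis genes fell. Of 17 tested fatty acid synthesis genes 10 fell and 5 rose. With the mean of all probe sets of a gene 4 fell and 3 rose. The count of genes that rose was also 3 without PBS replicate 1 or 24 h replicate 2 or 3, with no filter and with equal array medians. SCD, the desaturase that makes oleate, read 8237, 7773 and 7585 on the PBS arrays and 1867, 1981 and 2088 at 24 h. ACACB, a carboxylase at the mitochondrial surface, fell by 1.34, and ELOVL6, an elongase, rose by 1.45 ± 0.11. FASN, fatty acid synthase, had a log2 fold change of -0.10 ± 0.09 and did not pass. Of 18 tested sterol genes 13 fell and 1 rose: LSS (-1.60), HMGCS1 (-1.07) and DHCR7 (-0.73) fell, and INSIG1, a brake on the pathway, rose by 0.51 ± 0.08. Of 11 tested genes of fat cell hormones and their receptors 5 fell and 1, NAMPT, rose (median log2 fold change -0.70). SELENOP read 5846, 6015 and 7189 on the PBS arrays and 247, 226 and 291 at 24 h, and CFD, adipsin, fell by 1.27, while NAMPT, an enzyme of NAD synthesis also secreted by fat cells, went from 2118, 1940.1 and 2137 to 12594, 12259 and 12715 (limma adjusted p at most 0.00194 for the changes named here).

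Genes of mitochondrial fuel use fell in most tested cases. Of 21 tested fatty acid oxidation genes 18 fell and 0 rose, with a median log2 fold change of -0.66. ACADL, the long-chain dehydrogenase, read 491, 536 and 484 on the PBS arrays and 93.5, 81.4 and 75.9 at 24 h. ETFDH, which passes its electrons to the respiratory chain, read 1149, 1213 and 1202 on the PBS arrays and 457, 517 and 502 at 24 h. HADH (-1.20), ECI1 (-1.07) and DECR1 (-1.03) fell also, whereas CPT1A, the gatekeeper of entry into the mitochondrion, had 0.32 ± 0.16 and did not pass. Of 21 tested genes for the breakdown of leucine, isoleucine and valine 15 fell and 1 rose. The riser was BCAT1, the cytosolic transaminase of the first step, with 374, 395 and 396 on the PBS arrays and 1375, 1328 and 1334 at 24 h. HIBADH (-1.11), BCKDHB (-0.98) and ALDH6A1 (-0.93), in later steps within the mitochondrion, fell. Of 26 genes of the citric acid cycle and of pyruvate entry into it 20 fell and 1 rose: PC, pyruvate carboxylase, fell (-1.68), as did the pyruvate carrier gene MPC1 (-1.12). PDK2 and PDK4, kinases that switch pyruvate dehydrogenase off, fell (-1.40 and -1.06), and PDP1, the phosphatase that switches it on, rose by 1.39 ± 0.06 (limma adjusted p at most 0.00182 for the changes named here).

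Respiratory chain genes fell by small amounts in most tested cases. Of 32 tested complex I genes 29 fell and 0 rose, with a median log2 fold change of -0.42 and a range from -0.94 to -0.12. NDUFS7, a subunit of the electron path, read 1953, 2005 and 2044 on the PBS arrays and 946, 1185 and 1068 at 24 h. NDUFS1, the largest subunit, read 4441, 4393 and 4562 on the PBS arrays and 3106, 2942 and 3079.5 at 24 h. Of 32 genes of complexes III to V 28 fell and 0 rose (median -0.39), among them UQCRC2 (-0.82), CYC1 (-0.69) and ATP5F1B (-0.52). Mitochondrial ribosomal protein genes fell in 32 of 75 tested cases and rose in 5 (median -0.14). The first count was 21 without PBS replicate 1 or 2 and 19 without 24 h replicate 1, and the second 1 or 2 without any 1 array but 24 h replicate 1, and 1 with the replicate block. Of 26 import and dynamics genes 7 were lower and 4 higher, near the shares over all tested genes (22.8% and 17.5%). MFN2, which fuses mitochondria, fell by 0.75 on the log2 scale (limma adjusted p at most 2.03e-04 for the changes named here).

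**Figure D3:**
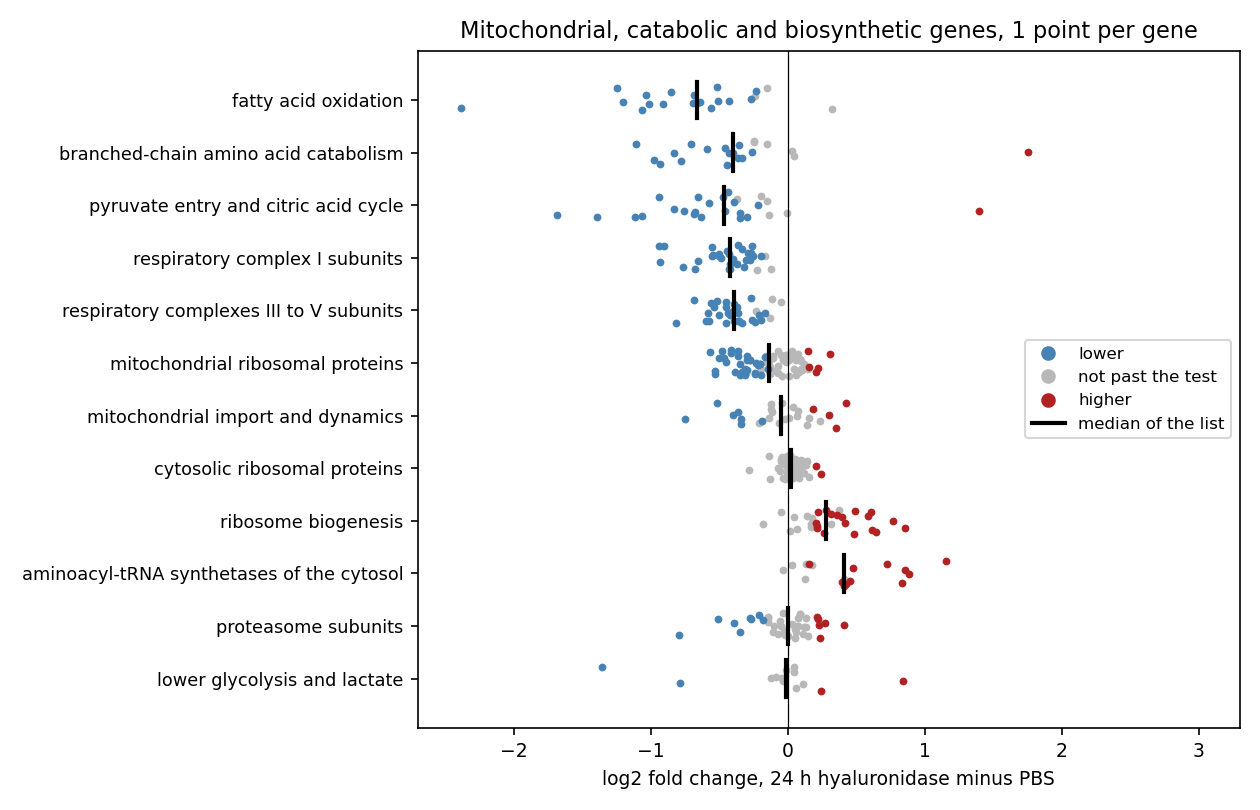
Log2 fold change at 24 h (horizontal axis) of each tested gene in 12 lists, 1 point per gene, coloured by the limma call, with a black bar at the median of each list. Complex I (median -0.42) and fatty acid oxidation (median -0.66) lie to the left of 0, cytosolic ribosomal proteins (median 0.02) on it and cytosolic aminoacyl-tRNA synthetases (median 0.41) to the right.

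Single glucose genes moved in both directions. Of 19 tested genes of glucose transport and upper glycolysis 7 rose (36.8%) and 4 fell (21.1%), against 17.5% and 22.8% of all tested genes. Of 13 of lower glycolysis 2 rose and 2 fell (15.4% each), below both shares, and for 7 the 95% interval lay within 1.2-fold. SLC2A3, the high-affinity glucose transporter, read 376, 354 and 285 on the PBS arrays and 1226, 1198 and 1262 at 24 h. HK1, the housekeeping hexokinase, rose by 1.12 ± 0.05, and PFKFB4 and PFKFB3, which set the level of the glycolytic activator fructose 2,6-bisphosphate, by 2.38 ± 0.15 and 1.36 ± 0.06. The muscle-type phosphofructokinase PFKM fell (-0.76), as did ALDOC, an aldolase (-1.36). For GAPDH the 95% interval of the log2 fold change ran from -0.14 to 0.23, and for ENO1 from -0.13 to 0.10. Glycogen genes fell in 9 of 14 tested cases and rose in 2 (1 on leaving out any array but 24 h replicate 3, and with the replicate block): GYG2, the glycogenin of liver and fat that primes the polymer, read 1118, 1134 and 1124 on the PBS arrays and 214, 223 and 288 at 24 h, and GBE1, the branching enzyme, fell by 1.01. TXNIP, the arrestin-like protein named in the title of the series, read 10597, 10871 and 10929.6 on the PBS arrays and 12375, 13103 and 11623 at 24 h, a log2 fold change of 0.19 ± 0.06 (limma adjusted p = 0.0281). That call was lost without any 1 of the PBS arrays, without 24 h replicate 1 or 2, and under 5 of the other alternatives. The log2 fold change was 0.15 to 0.20 in those fits without 1 array, 0.19 in 3 of the other 5, 0.12 with quantile normalization and 0.08 with the mean of all probe sets. HK2 did not pass (-0.19 ± 0.16), except without PBS replicate 2, where it was lower (-0.40), and the 24 h difference of SLC2A1 (0.17 ± 0.10) passed only without PBS replicate 1 (0.28). Another HK2 probe set, at 0.44, was called higher in the test over probe sets, and that at 0.36 did not pass.

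Most tested genes of amino acid transport, of tRNA charging and of the integrated stress response were higher. Of 21 tested amino acid transporter genes 11 rose and 3 fell. SLC7A5, the leucine exchanger, read 484, 553 and 489.9 on the PBS arrays and 3403, 3304 and 3454 at 24 h, and its partner chain SLC3A2 rose by 0.71 ± 0.10. SLC7A11, which imports cystine, read 912, 944 and 1029.6 on the PBS arrays and 6141, 6556 and 5698 at 24 h. Of 16 tested genes of serine, glycine, one-carbon and asparagine synthesis 6 rose (37.5%), 3 fell (18.8%) and 7 did not pass. Over all tested genes 17.5% rose and 22.8% fell. ASNS, asparagine synthetase, read 379.7, 443 and 370.4 on the PBS arrays and 2171, 2323 and 2229 at 24 h. MTHFD2, of mitochondrial folate metabolism, rose by 1.65 ± 0.06 and PSAT1, of serine synthesis, by 0.95 ± 0.05, while ASS1, which makes argininosuccinate, fell by 1.43. None of 17 tested cytosolic aminoacyl-tRNA synthetase genes fell and 11 rose, for tryptophan (WARS1, 1.16), glycine (GARS1, 0.88), threonine (TARS1, 0.85) and tyrosine (YARS1, 0.84) most. Of 15 genes around ATF4 and CHOP, the factors of the integrated stress response, 11 rose and 1 fell. DDIT4, an inhibitor of mTORC1, read 448, 377 and 402 on the PBS arrays and 3695, 3568 and 3847 at 24 h, TRIB3 rose by 2.42 ± 0.08 and ATF4 itself by 0.91 ± 0.05 (limma adjusted p at most 8.87e-04 for the changes named here).

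Most metallothionein and zinc transporter genes rose. Of 14 tested members 10 rose and none fell. MT2A read 7056, 7292 and 7998 on the PBS arrays and 31976, 33667 and 29384 at 24 h. MT1X read 6116, 5827 and 6230.2 on the PBS arrays and 25081, 26448 and 23852 at 24 h, and MT1H 2673, 3027 and 3083 on the PBS arrays and 20508, 20556 and 19508 at 24 h. Their sequences are so alike that probe sets can read more than 1 of them, so single members are uncertain. MT2A, MT1E, MT1F, MT1G, MT1H and MT1X are 6 neighbours in the order of tested genes along the RefSeq assembly, and all 6 rose, by 1.42 to 2.78; the call of MT1G (1.42) was lost when all its probe sets were averaged (0.62). The zinc exporter gene SLC30A1 rose by 1.05 ± 0.08 and the importer gene SLC39A14 by 0.73 ± 0.04. The promoters of MT2A, MT1X and MT1H are shown with matches to the core of the metal response element, TGCGCNC or TGCACNC on either strand, in capitals (120 bases before the start, RefSeq, GRCh38.p14).
MT2A (chr16:56608464-56608583, + strand): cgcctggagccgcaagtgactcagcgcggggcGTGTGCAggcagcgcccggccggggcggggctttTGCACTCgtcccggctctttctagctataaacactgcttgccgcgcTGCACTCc
MT1X (chr16:56682350-56682469, + strand): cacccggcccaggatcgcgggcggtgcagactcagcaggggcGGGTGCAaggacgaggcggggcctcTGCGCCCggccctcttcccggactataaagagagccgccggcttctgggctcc
MT1H (chr16:56669694-56669813, + strand): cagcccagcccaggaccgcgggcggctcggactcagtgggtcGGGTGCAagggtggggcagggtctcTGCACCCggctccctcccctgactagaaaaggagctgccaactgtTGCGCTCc
Over 250 bases before the start MT2A has 7 matches, MT1X 4 and MT1H 8. At least 1 match stood in 24.7% of all promoters, 32.5% of those of tested genes and 31.6% of those of genes higher in the test against 2-fold, so the motif is common in these windows. Of 14 tested iron genes 5 rose and 5 fell (35.7% each), against 17.5% and 22.8% of all tested genes. STEAP1, of the STEAP family, rose by 2.10 ± 0.06, and SLC40A1, the iron exporter ferroportin, fell by 2.10 (limma adjusted p at most 0.00214 for the changes named here).

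Stress and survival genes were selective. Of 20 tested endoplasmic reticulum chaperone genes 11 rose and 1 fell (2 without PBS replicate 3 or 24 h replicate 1 or 3), none of them by 2-fold, with HYOU1, an oxygen-regulated chaperone, at 0.63 ± 0.12. Cytosolic heat shock genes rose in 3 of 13 (1 without PBS replicate 2 or 24 h replicate 1, and with the replicate block) and fell in 6 (3 without 24 h replicate 1), HSPB1 by 1.08. Antioxidant and NRF2 target genes fell in 10 of 25 (40%) and rose in 5 (20%), against 22.8% and 17.5% of all tested genes. CAT, catalase (-1.38) and GPX3 (-1.23) fell. Genes of the hypoxia-inducible factors and their targets rose in 16 of 23 and fell in 3; several, among them VEGFA and DDIT4, are also in lists above. Of 19 p53 targets 7 rose (36.8%) and 8 fell (42.1%). CDKN1A, the cell cycle inhibitor p21, read 1902, 1991 and 1948 on the PBS arrays and 5881, 6262 and 5718 at 24 h, while TP53I3 (-1.80) and ZMAT3 (-1.25) fell. BCL2A1, a survival protein at or below the control level in PBS, read 1465, 1342 and 1447 at 24 h, and MCL1 and BCL2L1, of the same family, rose by 1.42 ± 0.05 and 1.15 ± 0.11. The death-promoting PMAIP1 rose by 2.27 ± 0.19 and BCL2L11 fell by 1.06 (limma adjusted p at most 0.00392 for the changes named here).

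Most mitosis genes fell by small amounts, and most ribosome assembly genes rose by small amounts. Of 35 tested mitosis genes 23 fell and 1, BUB3, rose (0.22), with a median log2 fold change of -0.33. CDC20, which triggers anaphase, read 6252, 6576 and 7222 on the PBS arrays and 3553, 4327 and 3652 at 24 h, and CDK1, the mitotic kinase, 19373, 20207 and 20921 on the PBS arrays and 14764, 14729 and 13656 at 24 h. The gaps between groups were small in both but no array crossed over, as in 52% of all tested genes. Of 37 DNA replication genes 7 fell (4 without 24 h replicate 1 or 2) and 2 rose (1 when PBS replicate 2 or 3, or 24 h replicate 1 or 3, was left out), against 22.8% and 17.5% of all tested genes. Of 33 tested histone genes 15 fell and 0 rose, or 1 without PBS replicate 3 (median -0.43); H1-2, a linker histone (-1.32), and H2AC6 (-1.13) fell. Of 21 tested genes of G1 cyclins, E2F factors and CDK inhibitors 6 rose and 8 fell (4 or 5 when PBS replicate 1 or 3, or 24 h replicate 1 or 2, was left out, and 5 with no filter on low values). CCND1, cyclin D1, above the control level on 2 of 3 PBS arrays, read 68.4, 59.4 and 40.7 on the PBS arrays and 1268, 1264 and 1251 at 24 h, and the inhibitor gene CDKN1C fell by 2.42. Of 29 ribosome assembly genes 18 rose and 0 fell, MYC by 0.77 ± 0.04 and RRP9 by 0.86 ± 0.15. By contrast the 54 tested genes of the cytosolic ribosome had a median of 0.02, with 2 higher (4 without 24 h replicate 3) and none lower, and for 44 of them the 95% interval lay within 1.2-fold. Proteasome genes were also centred on 0 (median -0.00, 6 of 41 higher and 8 lower, the latter 4 or 5 on leaving out any 1 array and 4 with the replicate block), and PSMB9, an immunoproteasome subunit, fell by 0.80 (limma adjusted p at most 0.00537 for the changes named here).

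Interferon-stimulated genes divided into a larger group that fell and a smaller one that rose. Of 34 tested, 19 fell and 8 rose (median -0.61). TRIM22, an antiviral factor, read 1869, 2182 and 1752 on the PBS arrays and 383, 369 and 360.5 at 24 h. IFI27 fell from 1790.5, 2199.5 and 1638 to 324, 448 and 444, and OAS2 by a log2 fold change of -1.65. IFIT2, which binds viral RNA, went the other way, from 203, 221 and 209 to 685, 703 and 719. OASL rose by 1.39 ± 0.10, and IRF1, a transcription factor induced by interferon, by 0.72 ± 0.08. The checkpoint ligand genes CD274 and PDCD1LG2, at or below the control level in PBS, were at least 4.67-fold and 3.38-fold higher, at 298, 273 and 292 and 209.9, 193 and 208. Class I genes such as HLA-B (95% interval of the log2 fold change -0.21 to 0.20) and HLA-C (-0.17 to 0.18) did not pass. Of 10 leukocyte markers 4 were tested and 3 rose, CD163 by 2.44 ± 0.18, CSF1R by 1.04 ± 0.14 and LCP1 by 0.88 ± 0.20. ITGAM, also tested, did not pass (0.10), and another of its probe sets was called lower (-1.31). The summed signal of the 10 was 397 to 459 in PBS and 1029 to 1084 at 24 h, while PTPRC, MS4A1, LYZ and TYROBP lay at or below the control level on all arrays. Of 16 tested complement genes 7 fell, among them C1R (-0.56) and C1S (-0.42), and 3 rose, among them the complement shields CD55 (1.93) and CD59 (1.12) (limma adjusted p at most 0.00978 for the changes named here).

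**Figure D4:**
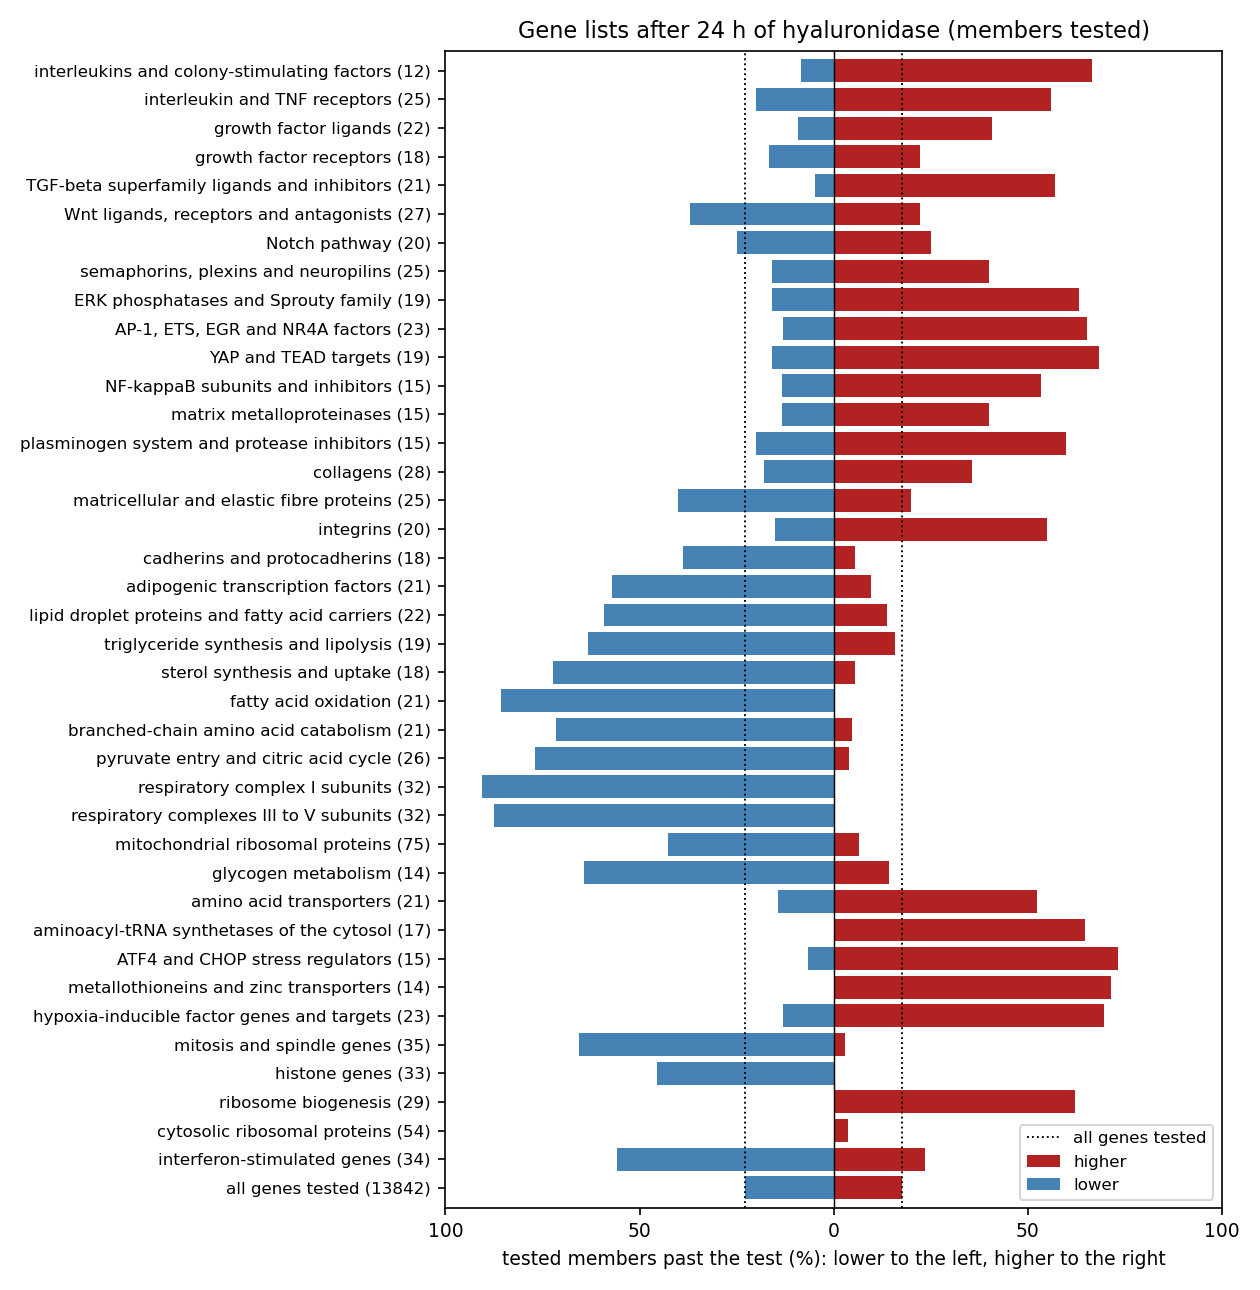
Share of tested members past the limma test as higher (red, right) and lower (blue, left) in 39 gene lists and in all 13842 tested genes, with the number tested in brackets. Dotted lines mark the shares over all tested genes, 17.5% higher and 22.8% lower; complex I has 29 of 32 members lower and none higher, and cytosolic ribosomal proteins have 2 of 54 higher and none lower.

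Large gene families were also measured. Of 410 tested genes with symbols of the ZNF series 38 rose (9.27%) and 73 fell (17.8%), and of 245 solute carrier genes 49 rose (20.0%) and 51 fell (20.8%). Over all tested genes 17.5% rose and 22.8% fell, so both ZNF shares lay below these and the solute carrier shares near them. Within the solute carriers SLC22A4, a carnitine and ergothioneine transporter, rose most among the members above the control level on all arrays, from 289, 255 and 230.3 to 3953, 3892 and 4007. Clock genes divided evenly, 6 of 17 higher and 6 lower (35.3% each): BMAL2 rose by 1.71 ± 0.15, and BHLHE41 (-1.71) and PER3 (-1.23) fell. Of 37 lysosomal genes 16 fell (43.2%) and 7 rose (18.9%). The protease CTSL (1.37) and the cholesterol exporter NPC1 (1.40) were among the risers, and the transcription factor gene MITF (-1.04) among those that fell. Of 14 tested peroxin genes, which build peroxisomes, 7 fell and none rose (limma adjusted p at most 4.43e-04 for the changes named here).

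Single genes without a place in these groups were among the largest changes. TMEM158, a membrane protein first found through RAS signalling, read 670.0, 581 and 595 on the PBS arrays and 17947, 18977 and 15858 at 24 h. SCG5, a chaperone of prohormone convertase, read 212, 207 and 241 on the PBS arrays and 6039, 6041 and 5985 at 24 h. PI3, elafin, an inhibitor of neutrophil elastase, read 80.5, 86.1 and 112 on the PBS arrays and 2294, 2341 and 2460.0 at 24 h. PID1, which interferes with insulin signalling, read 354, 416 and 339.9 on the PBS arrays and 8132, 7957 and 8372 at 24 h, and IER3, an early response gene, 1496, 1329 and 1265 on the PBS arrays and 23917, 24568 and 23022 at 24 h. Among the falls, BBOX1, the last enzyme of carnitine synthesis, read 898, 913 and 941 on the PBS arrays and 67.1, 70.9 and 65.3 at 24 h. CALCRL, the receptor chain for adrenomedullin, read 1042, 1102 and 1109 on the PBS arrays and 104, 137 and 97.5 at 24 h. MRAP, the partner of the ACTH receptor, read 1863, 1744 and 1758 on the PBS arrays and 179.7, 174 and 198 at 24 h, and KANK1, which links adhesions to microtubules, 3784, 3987 and 3735 on the PBS arrays and 481, 454 and 523 at 24 h. These genes were picked among those whose groups did not overlap, as in 52% of all tested genes, so their separation is no result (limma adjusted p at most 3.63e-06 for the changes named here).

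The 6 h group, which shares the PBS arrays, is given for level only and was not compared. At 6 h the mean signal was 16553 ± 415 (SD, n = 3) for CXCL8 and 2892 ± 79.5 for LIF, against 25099 ± 1772 and 384 ± 32.6 at 24 h. For FST it was 3149 ± 55.1 against 2927 ± 128, and for NOG 27.5 ± 3.24 against 211 ± 18.5. For the fat cell genes PPARG and PLIN1 it was 4088 ± 303 and 766 ± 39.9, against 2014 ± 22.1 and 118 ± 27.8 at 24 h and 5613 ± 98.3 and 1749 ± 109.8 in PBS. For NDUFS7 the values were 1542 ± 118 at 6 h, 1066 ± 119.7 at 24 h and 2000.4 ± 45.7 in PBS.

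Different probe sets of a gene mostly told the same direction. Of 7437 genes with 2 or more tested probe sets, 1868 had at least 2 that passed the limma test over the 28764 tested probe sets with 1 symbol (8713 passed, 30.3%), and in 1823 of these all called probe sets moved 1 way. In 45 genes they went both ways. Of 6455 tested probe sets without a gene symbol 903 passed (14%). RUNX2, the bone cell transcription factor, is the case with the largest opposed changes: 1 probe set rose from 2315, 2273 and 2129 to 4486, 4475 and 4378, and the others fell, 1 from 295, 275 and 217 to 109.9, 134 and 106 and 1 from 184, 226 and 194 to 69.3, 81.5 and 73.9. OXR1, an oxidation resistance gene, had 1 probe set higher (1.31 ± 0.09, log2, SE) and 3 lower (from -0.72 to -0.52). PNKD had 1 at 0.95 and 1 at -0.80, and LPCAT3, a phospholipid remodelling enzyme, 1 at 0.62 and 1 at -0.99. COL1A1, the main chain of collagen I, fell on its brightest probe set (-1.84 ± 0.11) and on 2 others (-0.86 and -1.33), and rose on 1 whose PBS signals were 47.5, 22.7 and 18.1.

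**Figure D5:**
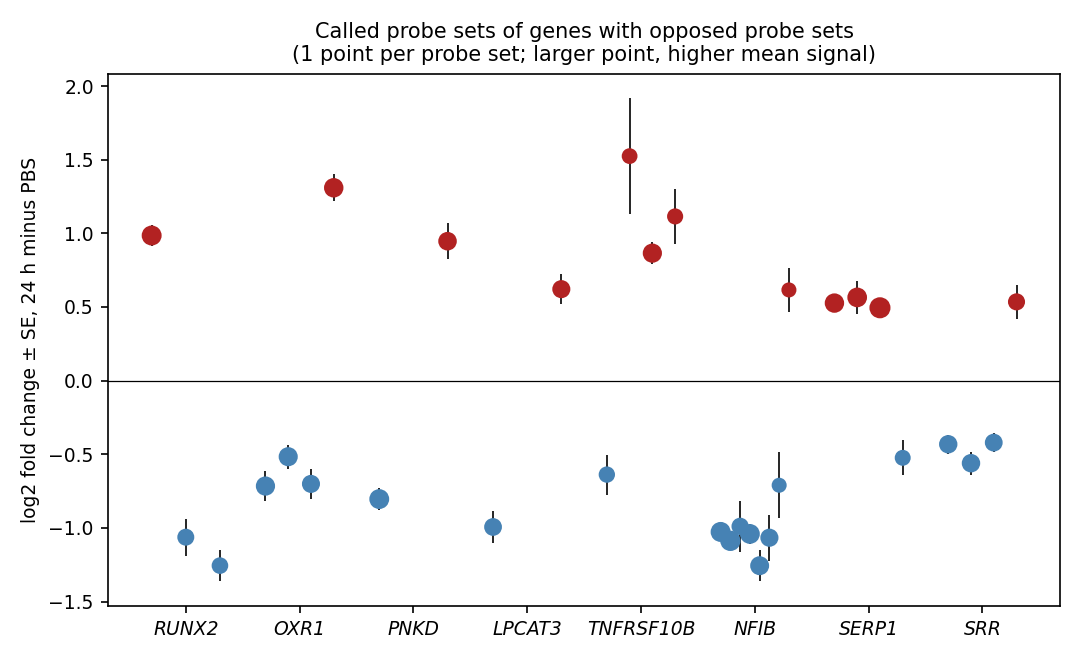
Log2 fold change at 24 h ± SE (vertical axis) of each called probe set of 8 genes whose called probe sets go in both directions, 1 point per probe set, red above 0 and blue below, with larger points for higher mean signal. RUNX2 has 1 probe set at 0.99 and 2 below -1.0, and OXR1 1 at 1.31 and 3 lower.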

How the data were processed

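Total RNA of LiSa-2 cells was measured on Affymetrix Human Genome U133 Plus 2.0 arrays, 1 per sample. The deposited table gives, per probe set and array, a linear intensity that the authors exported from CHP files, per the labels. The summarisation algorithm is not given in the sources used here. All arrays have a trimmed mean of 500.07 (2% trimmed from each tail), so they were scaled before they were deposited. Medians of the 6 arrays used were 57.0 to 59.6. Precision is limited by the number of arrays.

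Of 54675 probe sets, 62 are controls, 41091 have 1 gene symbol in the platform annotation, 1801 several and 11721 none. From the deposited intensity, log2(signal + 16) was computed with no further normalization. A gene's probe set was the one with the highest mean on the 9 arrays, and genes below the 30th percentile of mean (a signal of 32.2) were left out. The linear model (limma 3.58.1, lmFit and eBayes, R 4.3.3) had a mean for each of the 3 groups and used all 9 arrays. It was first tested on simulated data. A gene was called at a Benjamini-Hochberg adjusted p under 0.05 over all tested genes, and the test against 2-fold used treat. Errors are SE of the model or SD over arrays, as named. A fold against a group whose 3 arrays were at or below the control level is a lower bound against that level, given as "at least".

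Genes and the 86 gene lists were chosen with earlier results of these data known, so list counts are descriptions and have no test. Named by rule were the largest changes and up to 7 members of each list by size of change. The largest changes were taken only from called genes whose PBS and 24 h arrays did not overlap. Chosen after their values were seen were ABHD5, ACTB, ATF3, ATF4, ATP5F1B, AXIN2, C1R, C1S, CDH11, COL6A2, COL6A3, DGAT1, DGAT2, EMP1, ENO1, FABP4, FASN, FGF2, FN1, GAPDH, GREM1, HLA-B, HLA-C, IFIT2, IL15, IL1A, IL1RN, IL6ST, IRF1, ITGAV, ITIH5, LPCAT3, LTBP2, NDUFS1, NR3C1, OAS2, OASL, OXR1, PFKM, PNKD, PPARD, RUNX2, SEMA3A, SLC30A1, SLC39A14, SLC3A2, SPRY1, TGFB2, TIMP3, VEGFC and ZMAT3.

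The promoter windows come from the RefSeq table for GRCh38.p14, in which 11167 tested genes were found. The alternatives were other pseudocounts, filters, scalings and prior variances, only the 6 arrays compared, the mean of all probe sets of a gene, each array left out in turn, and the replicate number as a block. Replicate numbers of the titles are shared by the groups, but arrays with the same number did not deviate together (correlations of deviations from the group means 0.01, 0.02 and -0.05), so the numbers were not taken as pairs.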

Additional observations from a re-analysis of the deposited data

Results flagged for a closer look

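Probe sets outside the gene comparison also carried differences between the groups. Of 6455 tested probe sets with no gene symbol in the annotation used, 903 passed the limma test at 24 h (416 higher and 487 lower), and 130 and 107 of them changed 2-fold or more. Of 1397 tested probe sets with several symbols, 348 passed (154 higher and 194 lower). No gene is named from either kind.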

How the results depend on the processing

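The number of genes changed was 5577 and lay between 4499 (mean of all probe sets of a gene) and 5985 (trended and robust prior variance) over the 16 alternatives. With the replicate block it was 5187, and leaving out 1 array at a time gave 4818 to 5069. The share of calls that were higher was 42.2% to 45.7%, and the counts of all genes changed, higher, lower and changed beyond 2-fold stayed within 1.5 times their main values under all 16, as did those of probe sets with 1 symbol and with none, which have no value with the mean of probe sets. Counts within gene lists moved by more in places, such as 32 mitochondrial ribosomal protein genes lower, which were 19 without 24 h replicate 1. Of 252 genes printed that passed the test, 245 passed in the same direction under every alternative that gave a value. The exceptions are TXNIP, MT1G and AXIN2, given in the text, and genes whose probe sets disagree: with the mean of all probe sets the log2 fold change was -0.13 for RUNX2, -0.051 for OXR1, 0.20 for PNKD and -0.19 for LPCAT3, each opposite in sign to the main value. The replicate block ended the call of no printed gene. Probe sets near the control level limit what can be said of dim genes, for which only a bound is given.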
